A study of Mus musculus with 2 samples.

Results

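Fatty acid use and PPAR target genes were followed in single cells of mouse kidney glomeruli through 9 genes, Cpt1a, Angptl4, Ucp2, Pdk4, Plin2, Scd1, Scd2, Fabp5 and Cd36, taken by symbol from the 31058 features counted. The genes were chosen by the difference in their summed levels between the libraries and by their levels across cell classes, with earlier results of these same libraries in view, so their levels and ratios are a description and carry no test. The cells came from glomeruli of 2 healthy mice on the C57Bl/6 background, with 1 library (10x Genomics, counted at transcript 3' ends) per animal: the library labelled female and the library labelled male. Both mice had the alleles Pax2.rtTA;TetO.Cre;R26.Confetti, in which doxycycline lets cells that use the Pax2 promoter make Cre and recombine a multicolour reporter. Both received doxycycline at 19 days of age and were killed at 30 days, and the suspension was 95% viable. No untreated or reporter-free mouse was analysed here. With 1 library for each label, no difference between the labels has a replicate check, and mouse, label, library and run cannot be told apart.

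Peroxisome proliferator-activated receptors (PPARs) are nuclear receptors that bind fatty acids and, paired with retinoid X receptors, switch on genes for fatty acid uptake, storage and oxidation. In the kidney, tubule cells run largely on fatty acids, endothelial cells take them from the blood and pass them on, and podocytes make lipoprotein lipase and can store lipid in droplets. Cpt1a, Angptl4, Pdk4, Plin2, Ucp2 and Cd36 are well known PPAR targets in several tissues, Fabp5 delivers fatty acids to PPAR delta, and Scd1 and Scd2 make monounsaturated fatty acids.

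Captured transcripts, each counted once by its UMI (unique molecular identifier), numbered 67648465 over 5233 barcodes under the female label and 57841860 over 4974 barcodes under the male label. The labels go against the sex-linked genes: Xist, transcribed from the inactive X chromosome of females, stood at 0.621 CPM (summed UMIs scaled to 1000000) under the female label and at 1426 CPM under the male label, and 4 Y-linked genes stood at 201 and 0.0346 CPM. Every direction below is therefore given by label only, and under the female or male label means in the library labelled so. After filtering, 4909 and 4442 cells remained, with medians of 10672 and 9616 UMIs, and 10 barcodes occurred in both libraries. Cells were clustered without the 9 genes and the pathway genes, and 6 classes with 50 or more cells in each library were named from marker genes: podocyte-like (3506 and 2958 cells), parietal epithelial-like (216 and 156), mesangial-like (242 and 175), glomerular endothelial-like (113 and 90), arterial endothelial-like (83 and 82) and thick ascending limb-like (60 and 91). Their defining markers were present, such as 10 podocyte markers that summed to 26879.7 and 27891 CPM in podocyte-like cells, Pdgfrb at 757 and 933 CPM in mesangial-like cells, Kdr at 2492 and 2187 CPM in glomerular endothelial-like cells and Umod at 5368 and 4349.9 CPM in thick ascending limb-like cells. The parietal class was mixed: 6 parietal and 9 podocyte markers counted for it, and a finer clustering left 74 and 49 cells with 8 parietal and 0 podocyte markers, while 146 and 125 cells formed a separate group led by Cst12, with 10 podocyte markers. The thick ascending limb class likewise held cells that the finer clustering called distal convoluted tubule-like (22 and 44). For the arterial class 6 arterial and 3 podocyte markers counted, and the finer clustering named 63 and 66 arterial cells. Apart from these it had an unnamed cluster of 20 and 16 cells led by Fabp4 and Gpihbp1, with 10 podocyte markers.

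Levels are UMIs summed over the cells of a class in 1 library, as CPM of that sum, and brackets hold 95% intervals that cover counting error only. A ratio is the library labelled female over that labelled male. Ptpro, a podocyte phosphatase, was also found in the other classes, and stood at 34.2% and 34.7% of its podocyte level in parietal epithelial-like cells, at 25.2% and 26.2% in arterial endothelial-like cells, at 21.4% and 23.0% in thick ascending limb-like cells, at 14.4% and 5.38% in mesangial-like cells and at 3.51% and 1.92% in glomerular endothelial-like cells. The adipocyte markers Adipoq, Lep, Retn and Cfd summed to 0 CPM in all 6 classes of the library labelled female and to at most 1.15 CPM in those of the library labelled male.

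The 9 genes are protein-coding genes in the GRCm38 annotation. Cpt1a lies at chr19:3322334-3385733 on the plus strand, Angptl4 at chr17:33773750-33781830 on the minus strand, Ucp2 at chr7:100493337-100502020 on the plus strand, and Pdk4 at chr6:5483351-5496309 on the minus strand. Plin2 lies at chr4:86648386-86670060 and Cd36 at chr5:17781690-17888801, both on the minus strand, and Fabp5 at chr3:10012548-10016607 on the plus strand. Scd2 at chr19:44293674-44306864 (plus strand) and Scd1 at chr19:44394455-44407879 (minus strand) lie close together. The last 500 transcript bases of Scd1 and Scd2, where 3' counts fall, shared no 31-base word with any other gene, each other included. Ucp2 overlaps Dnajb13 on the opposite strand, which stood at 0.428 and 0.301 CPM in podocyte-like cells.

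The promoters of 5 of the 9 genes (Cpt1a, Ucp2, Pdk4, Plin2 and Cd36) were in the RefSeq table for GRCm38.p6. The 250 bases before the start site are shown for Cpt1a and Ucp2, which differed between the libraries in the most classes. They are also shown for Plin2, a PPAR target that passed the 1.5-fold limit used below in none of the classes named above. Sequences run 5' to 3' on the strand of the gene, from chr19:3323051-3323300 (plus), chr7:100493108-100493357 (plus) and chr4:86670060-86670309 (minus). Capitals mark a match, on either strand, to the receptor hexamer AGGTCA or to the direct repeat AGGTCANAGGTCA with up to 2 mismatches.
Cpt1a: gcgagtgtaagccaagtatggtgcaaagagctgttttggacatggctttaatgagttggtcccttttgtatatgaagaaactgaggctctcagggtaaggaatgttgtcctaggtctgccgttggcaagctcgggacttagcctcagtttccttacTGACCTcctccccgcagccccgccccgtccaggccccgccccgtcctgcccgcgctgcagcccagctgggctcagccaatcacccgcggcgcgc
Ucp2: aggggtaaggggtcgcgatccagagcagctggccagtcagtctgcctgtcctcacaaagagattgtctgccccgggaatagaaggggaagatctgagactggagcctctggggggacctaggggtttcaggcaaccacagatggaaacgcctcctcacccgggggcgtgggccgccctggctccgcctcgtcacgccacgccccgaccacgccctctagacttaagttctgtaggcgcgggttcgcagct
Plin2: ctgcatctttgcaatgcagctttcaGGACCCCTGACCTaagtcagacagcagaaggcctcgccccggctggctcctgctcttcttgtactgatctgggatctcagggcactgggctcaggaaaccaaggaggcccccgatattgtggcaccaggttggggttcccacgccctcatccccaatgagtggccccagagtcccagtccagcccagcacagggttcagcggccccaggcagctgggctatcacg

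Cpt1a held 1 hexamer, 94 bases before the start site. Plin2 held a hexamer that lies inside a direct repeat with 2 mismatches, which begins 225 bases before the start site. Cd36 held a hexamer at 228 bases and a direct repeat with 2 mismatches at 63 bases before the start site. Ucp2 and Pdk4 held neither motif in this window. RefSeq starts Cpt1a and Cd36 inside the gene spans given above, so these windows lie within those spans. Of 32851 promoters of the same length, 14.0% held the hexamer, 3.24% the direct repeat with up to 2 mismatches and 0.0335% the exact direct repeat. These matches are letters in a window, and nothing was measured on binding.

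Cpt1a, the carnitine palmitoyltransferase that admits long-chain fatty acids to mitochondria and limits their oxidation, stood at 66.0 CPM [63.7 to 68.5] in podocyte-like cells under the female label and at 34.2 CPM [32.2 to 36.2] under the male label. The ratio was 1.93 [1.80 to 2.07]. Parietal epithelial-like cells had 67.4 and 41.2 CPM (1.64 [1.29 to 2.10]), and mesangial-like cells 102 and 57.2 CPM (1.78 [1.40 to 2.28]). Cpt1a was thus higher in the library labelled female in podocyte-like, parietal epithelial-like and mesangial-like cells. In the parietal cells without podocyte markers it had 69.8 and 34.7 CPM (2.01 [1.35 to 3.07]), while with podocyte RNA subtracted in proportion to Ptpro the log2 ratio of the whole parietal class was 0.51, under the 1.5-fold limit used below. Glomerular endothelial-like cells had 108 and 46.2 CPM (2.35 [1.60 to 3.53]), and arterial endothelial-like cells 60.7 and 27.6 CPM (2.20 [1.35 to 3.69]). Thick ascending limb-like cells had 228 and 214 CPM, a ratio of 1.07 [0.910 to 1.25]. This tubule class had the highest Cpt1a level in both libraries, at 3.46 and 6.25 times the podocyte level, and showed the smallest difference between them. Its 2 cell groups leaned apart: by the finer clustering, the thick ascending limb-like cells had 277 and 228 CPM (1.21 [0.996 to 1.48]), and the distal convoluted tubule-like cells 126 and 199.9 CPM (0.632 [0.449 to 0.874]). In the library labelled female, glomerular endothelial-like and mesangial-like cells came next after the tubule and their intervals overlapped, as did those of parietal epithelial-like, podocyte-like and arterial endothelial-like cells.

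Ucp2, an inner mitochondrial membrane carrier that fatty acids induce, stood at 275 CPM [271 to 280.4] in podocyte-like cells under the female label and at 119 CPM [115 to 123] under the male label, a ratio of 2.32 [2.23 to 2.40]. Mesangial-like cells had 197 and 89.2 CPM (2.20 [1.83 to 2.67]), and parietal epithelial-like cells 314 and 166 CPM (1.90 [1.69 to 2.14]). Both libraries therefore carried Ucp2 in these 3 glomerular classes, with the higher level under the female label, and the parietal cells without podocyte markers had 308 and 192 CPM (1.61 [1.35 to 1.91]). Arterial endothelial-like cells had 126 and 69.0 CPM (1.83 [1.34 to 2.53]), and glomerular endothelial-like cells 284 and 165 CPM (1.72 [1.40 to 2.13]). With podocyte RNA subtracted in proportion to Ptpro, the log2 ratio in arterial endothelial-like cells was 0.49, also under that limit. In thick ascending limb-like cells it had 138 and 132 CPM, a ratio of 1.04 [0.847 to 1.28], and with podocyte RNA subtracted its log2 ratio there was -0.41. As with Cpt1a, the tubule class differed least before that subtraction. The order of the classes changed between libraries: parietal epithelial-like and glomerular endothelial-like cells led in both with overlapping intervals, whereas the thick ascending limb-like cells stood below podocyte-like cells under the female label and overlapped them under the male label.

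Pdk4, the kinase that turns off pyruvate dehydrogenase and so spares glucose when fatty acids are burned, was highest in parietal and tubule cells. Parietal epithelial-like cells had 39.9 CPM [33.8 to 46.6] under the female label and 17.5 CPM [12.4 to 23.9] under the male label, a ratio of 2.28 [1.60 to 3.33]. The 74 and 49 cells without podocyte markers had 49.1 and 16.3 CPM (3.02 [1.74 to 5.62]). The Cst12-led cells had 31.5 and 18.3 CPM (1.72 [1.09 to 2.78]). Pdk4 was thus higher under the female label in both finer groups, which overlap the parietal class without matching it, but with 10 CPM added the Cst12-led cells had a log2 ratio of 0.55, within the 1.5-fold limit. Thick ascending limb-like cells had 32.4 and 23.8 CPM (1.36 [0.851 to 2.17]), an interval that includes 1. Podocyte-like cells had 7.73 and 3.70 CPM (2.09 [1.69 to 2.59]), a low level at which 1 cell held up to 9 UMIs. Mesangial-like cells had 4.89 and 3.69 CPM, glomerular endothelial-like cells had 4 and 0 UMIs, and arterial endothelial-like cells had 0 UMIs in both libraries, which allows up to 3 counts in each. Levels in parietal and tubule cells were 5.16 and 4.72 times and 4.19 and 6.44 times the podocyte level, and their intervals overlapped each other in both libraries.

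Angptl4, the secreted protein that inhibits lipoprotein lipase, was highest in mesangial cells among the named classes. Mesangial-like cells had 207 CPM [189.8 to 225] under the female label and 79.3 CPM [66.2 to 94.3] under the male label, a ratio of 2.60 [2.15 to 3.18]. These levels were 11.9 and 19.1 times those of podocyte-like cells. Smooth muscle or renin-like cells (43 and 62 cells), the vascular relatives of mesangial cells, had 66.6 and 32.4 CPM (2.06 [1.07 to 4.04]). Podocyte-like cells had 17.4 and 4.15 CPM (4.20 [3.50 to 5.07]), and parietal epithelial-like cells 29.6 and 7.16 CPM (4.13 [2.44 to 7.46]). Among these 4 classes the order was mesangial, smooth muscle, parietal and podocyte in both libraries, with the higher level under the female label in each. Parietal cells without podocyte markers had 27.3 and 5.42 CPM (5.05 [2.02 to 16.2]). Glomerular endothelial-like cells had 24 UMIs and 1 UMI, the 24 found in 5 cells. The 9 mesangial markers summed to 2026 and 71.3 CPM in glomerular endothelial-like cells, the same direction as Angptl4, Cpt1a and Ucp2 there, and their part in these 3 differences was not tested. Without the 5% of cells that looked most like mixtures by Scrublet score, the log2 ratio of Angptl4 there was -0.07, against 1.26 with them. Over 13 alternatives in that class, the log2 ratio ranged over 0.86 to 1.21 for Cpt1a and 0.74 to 1.01 for Ucp2. In arterial endothelial-like cells Angptl4 had 9 and 0 UMIs, at least 2.56-fold higher under the female label against the limit of 3 counts. In thick ascending limb-like cells Angptl4 had 6.82 and 1.74 CPM (3.91 [0.939 to 22.9]).

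Plin2, the coat protein of lipid droplets, was present in all 6 classes, at 26.9 to 53.0 CPM under the female label and at 18.0 to 46.2 CPM under the male label. Podocyte-like cells had 26.9 CPM [25.4 to 28.4] under the female label and 21.2 CPM [19.7 to 22.9] under the male label, a ratio of 1.27 [1.15 to 1.39]. Mesangial-like cells had 53.0 and 35.7 CPM (1.49 [1.09 to 2.05]), and thick ascending limb-like cells 30.7 and 18.0 CPM (1.70 [1.02 to 2.85]). None of these 3 differences passed the 1.5-fold limit once 10 CPM was added to each level. In alternative settings it was passed in 3 of 13 in mesangial-like cells and in 3 of 12 in thick ascending limb-like cells. In podocyte-like cells it was passed in 0 of 14. Parietal epithelial-like cells had 47.8 and 42.5 CPM, glomerular endothelial-like cells 52.7 and 46.2 CPM, and arterial endothelial-like cells 36.2 and 36.8 CPM. In these last 3 classes the interval of the ratio included 1.

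The uptake genes Cd36 and Fabp5 were highest in glomerular endothelium among the 6 classes. Cd36, the membrane receptor that carries long-chain fatty acids and oxidized lipoproteins into cells, had 66.4 CPM [53.5 to 81.4] in glomerular endothelial-like cells under the female label and 57.4 CPM [41.2 to 77.8] under the male label, a ratio of 1.16 [0.793 to 1.72]. Arterial endothelial-like cells had 9.80 and 12.6 CPM. In podocyte-like cells it came to 2 and 2 UMIs over 3506 and 2958 cells, and in parietal epithelial-like cells to 0 and 0 UMIs, which allows up to 3 counts in each. Cd36 was therefore at the limit of detection in podocytes and parietal cells of both libraries.

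Fabp5, a cytosolic fatty acid binding protein, had 252 CPM [226 to 279.8] in glomerular endothelial-like cells under the female label and 255 CPM [219 to 294] under the male label, a ratio of 0.989 [0.825 to 1.19]. That was 17.7 and 16.5 times the podocyte level of 14.2 and 15.4 CPM. The interval of the ratio in glomerular endothelium includes 1. Arterial endothelial-like cells had 109.7 and 17.2 CPM, a ratio of 6.36 [3.70 to 11.7]. Its size rests largely on 1 cell, since 70 of the 112 UMIs under the female label came from a single barcode. Scrublet scores how much a cell looks like a mixture, and with the top 5% of scores left out the log2 ratio of the arterial class was 0.69, against 2.14 with them. Smooth muscle or renin-like cells showed the same kind of concentration, with 22 of 44 UMIs in 1 cell under the female label and 113 and 26.7 CPM in all. Mesangial-like cells had 7.52 and 7.38 CPM and parietal epithelial-like cells 3.86 and 1.34 CPM.

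The desaturases Scd1 and Scd2, which put a double bond into newly made fatty acids, peaked in different classes. Scd2 had 287 CPM [282 to 292] in podocyte-like cells under the female label and 431 CPM [424 to 439] under the male label, a ratio of 0.666 [0.650 to 0.682]. It was the only one of the 9 genes at 20 CPM or more in podocyte-like cells that was lower under the female label, and podocyte-like cells had its highest level of the 6 classes in both libraries. Thick ascending limb-like cells had 139 and 281 CPM (0.495 [0.412 to 0.593]), and arterial endothelial-like cells 114 and 209 CPM (0.543 [0.427 to 0.689]). With podocyte RNA subtracted in the same way, the log2 ratios of these 2 classes were -1.18 and -1.11, against -0.96 and -0.83 before. The difference was smaller by other settings: -0.30 in thick ascending limb-like cells at a mitochondrial limit of 50%, and -0.45 in arterial endothelial-like cells thinned to 3000 UMIs, both within the 1.5-fold limit. By the finer clustering, thick ascending limb-like cells had 80.7 and 149.5 CPM (0.540 [0.393 to 0.735]), and distal convoluted tubule-like cells 261 and 404 CPM (0.644 [0.510 to 0.807]). Each group differed less than the whole class, in which distal cells were 22 of 60 and 44 of 91. Parietal epithelial-like cells had 125 and 188 CPM (0.666 [0.583 to 0.761]), but the cells without podocyte markers had 64.7 and 59.6 CPM (1.09 [0.781 to 1.53]) and the Cst12-led cells 179 and 295 CPM (0.605 [0.526 to 0.694]). The lower Scd2 of the parietal class was thus not seen in its cells that lacked podocyte markers. Mesangial-like cells had 88.7 and 95.3 CPM (0.930 [0.756 to 1.15]) and glomerular endothelial-like cells 70.0 and 78.3 CPM (0.894 [0.637 to 1.27]), so that the difference was within counting error there.

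Among the 6 classes, Scd1 was highest in endothelium. Glomerular endothelial-like cells had 28.2 CPM under the female label and 47.6 CPM under the male label, a ratio of 0.592 [0.364 to 0.967] on 39 and 34 UMIs. Arterial endothelial-like cells had 38.2 and 47.1 CPM (0.811 [0.509 to 1.29]). The intervals of both endothelial classes overlapped in both libraries. Podocyte-like cells had 0.676 and 1.11 CPM (0.607 [0.362 to 1.01]), and the remaining classes lay between 4.51 and 8.53 CPM under the female label and between 5.23 and 9.85 CPM under the male label. Among the 6 classes, Scd1 was thus highest in endothelial cells and Scd2 in podocyte-like cells in both libraries. The few proximal tubule-like cells (10 and 22) had 12.7 and 87.2 CPM of Scd1, above the endothelial level under the male label.

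**Figure D1:**
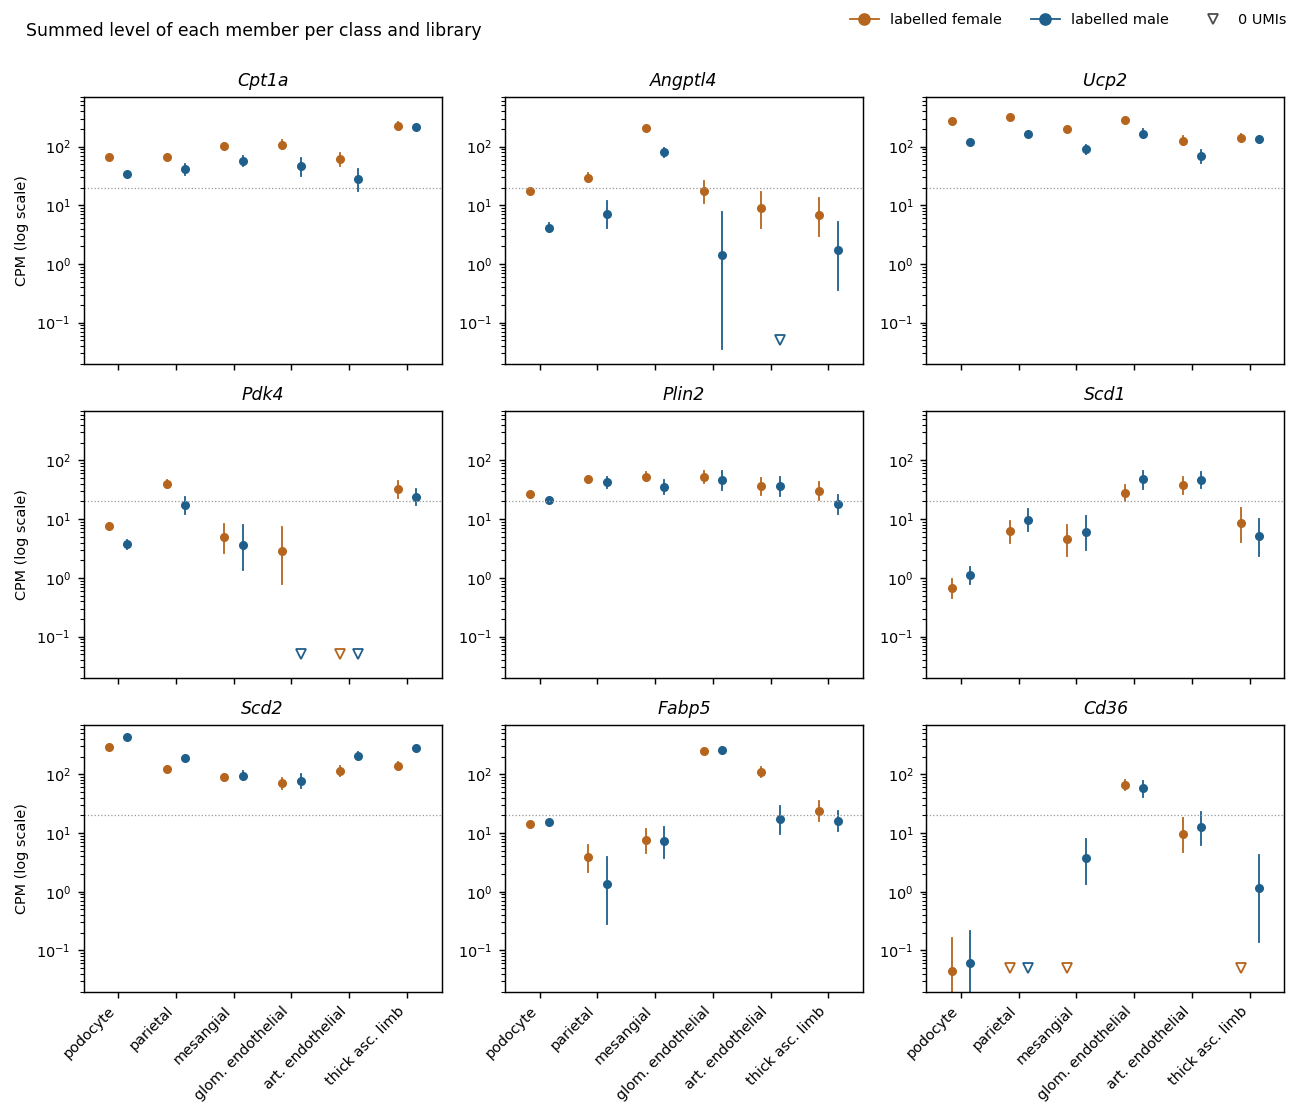
Summed level of each gene in CPM on a log axis, by class, with the library labelled female left of the library labelled male; bars are 95% counting intervals, the dotted line marks 20 CPM and open triangles mark 0 UMIs. Angptl4 peaks in mesangial-like cells (207 and 79.3 CPM), Fabp5 and Cd36 in glomerular endothelial-like cells, and Cpt1a in thick ascending limb-like cells.

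A gene was counted as different between libraries when it reached 20 CPM in either and its log2 ratio, with 10 CPM added to each level, was past 1.5-fold. In podocyte-like cells 4 of the 9 genes reached 20 CPM, of which 2 (Cpt1a and Ucp2) were higher under the female label and 0 lower, where 1.05% of all 6170 genes at that level differed (0.843% higher, 0.211% lower). Their log2 ratios were 0.78 and 1.15, and the 5th and 95th percentiles over all genes were -0.20 and 0.19. Scd2 lay just inside the limit with -0.57, and Angptl4 lay outside it with 0.96 but under 20 CPM. In parietal epithelial-like cells 4 of 6 genes were higher (Cpt1a, Angptl4, Ucp2 and Pdk4) and 0 lower, with 1.49% of all genes different (0.897% higher, 0.588% lower). In mesangial-like cells 3 of 5 were higher (Cpt1a, Angptl4 and Ucp2) and 0 lower, with 5.76% of all genes different (3.30% higher, 2.46% lower). Cpt1a and Ucp2 thus passed the limit in the same direction in podocyte-like, parietal epithelial-like and mesangial-like cells. In glomerular endothelial-like cells 2 of 7 were higher (Cpt1a and Ucp2) and 1 lower (Scd1, at a log2 ratio of -0.59 just past the limit and within it in 5 of 13 alternatives), with 10.4% of all genes different (6.53% higher, 3.84% lower). In arterial endothelial-like cells 3 of 6 were higher (Cpt1a, Ucp2 and Fabp5) and 1 lower (Scd2), with 7.04% (3.10% higher, 3.94% lower). In thick ascending limb-like cells 0 of 6 were higher and 1 lower (Scd2), with 6.17% (2.98% higher, 3.19% lower). Since the genes were picked with these differences known, nothing is read from the counts against these shares.

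**Figure D2:**
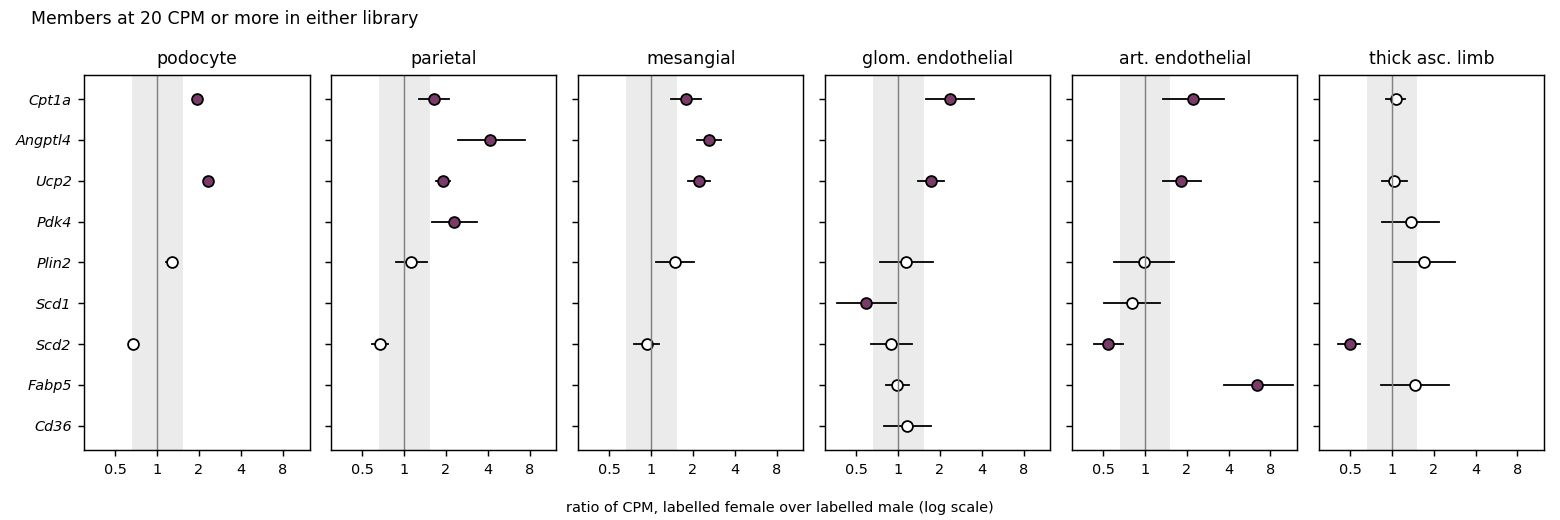
Ratio of CPM, the library labelled female over that labelled male, on a log axis, for the genes at 20 CPM or more in either library; bars are 95% counting intervals, grey marks ratios within 1.5-fold, and filled points passed the limit after 10 CPM was added to each level. Cpt1a and Ucp2 are filled in 5 of the 6 classes and open in thick ascending limb-like cells, at 1.07 and 1.04.

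Other measures moved with the label in some classes. In podocyte-like cells 17 of 17 early response and stress genes (such as Fos and Hspa1a, which handling of cells induces) were higher under the female label, 10 of them past 1.5-fold, with summed levels of 28505 and 19097 CPM and a median log2 ratio of 0.64. Of all 6170 genes at 20 CPM or more there, 2740 were higher. Without the 2 podocyte-like clusters led by early response and stress genes, a setting chosen after seeing the data, the log2 ratio was 0.75 for Cpt1a and 1.08 for Ucp2. In mesangial-like, glomerular endothelial-like and arterial endothelial-like cells the median log2 ratio of the same list was -0.20, -0.17 and -0.04. In parietal epithelial-like and thick ascending limb-like cells it was 0.06 and 0.54. Haemoglobin and other red blood cell genes summed to 841 and 16.4 CPM in podocyte-like cells, to 2056 and 18.8 CPM in parietal epithelial-like cells, to 115 and 22.8 CPM in mesangial-like cells and to 102 and 17.2 CPM in arterial endothelial-like cells. They summed to 9921 and 16.3 CPM in thick ascending limb-like cells, and were lower under the female label in glomerular endothelial-like cells, at 4648 and 6255 CPM. The part of the handling response and of red cell RNA in the differences between libraries was not tested. Barcodes with over 20% mitochondrial UMIs made up 5.41% and 10.1% of the libraries.

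Within podocytes the differences held cluster by cluster. The podocyte-like cells formed 6 clusters, which share the same 2 libraries and so are no replicates. Cpt1a stood at 58.4 to 69.2 CPM in the clusters of the library labelled female and at 31.1 to 38.9 CPM in those of the library labelled male. Ucp2 stood at 245 to 300.1 and 98.7 to 133 CPM, and Angptl4 at 10.6 to 22.3 and 3.16 to 5.43 CPM. The clusters of the libraries did not overlap for these 3 genes, and each of the 6 clusters was higher under the female label. Scd2 stood at 257 to 344 and 393 to 464 CPM, without overlap and lower under the female label in 6 of 6. The share of all genes whose clusters lacked overlap by this rule was not counted. The genes were picked with their differences between libraries known, so nothing is read from the lack of overlap. Pdk4 and Plin2 were higher under the female label in 6 of 6 clusters, with ranges that overlapped. Fabp5 was higher under the female label in 2 of 6 and lower in 4 of 6. It was highest, at 27.2 and 32.4 CPM, in the cluster led by Mylk3 and Myl7. A further cluster of 591 and 737 cells with 10 podocyte markers, unnamed because haemoglobin genes led it, had 66.0 and 34.2 CPM of Cpt1a, 243 and 101 CPM of Ucp2 and 318 and 469 CPM of Scd2.

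**Figure D3:**
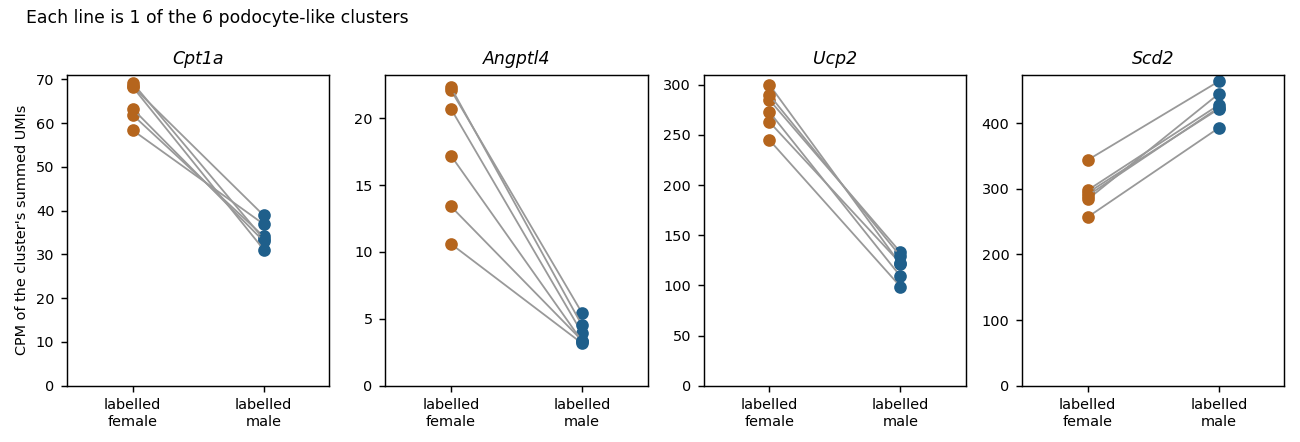
Level in CPM of 4 genes in each of the 6 podocyte-like clusters, with the library labelled female on the left and the library labelled male on the right; a line joins the same cluster in both. Every line falls to the right for Cpt1a, Angptl4 and Ucp2 and climbs for Scd2.

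The other genes of fatty acid metabolism differed less. Of 90 genes in 10 lists (uptake, carnitine shuttle, beta-oxidation, peroxisomal oxidation, receptors, droplets, synthesis, pyruvate dehydrogenase, uncoupling carriers and the lipoprotein lipase axis), 37 reached 20 CPM in podocyte-like cells. Of these, 0 were past 1.5-fold in either direction, where 1.05% of all genes were. Under the female label 26 of 37 were higher, where 2740 of all 6170 genes at that level were. The median log2 ratio of the 37 was 0.10, against -0.02 over all genes. The 15 beta-oxidation genes were all measured, with 10 of 15 higher under the female label and a median of 0.12. The largest ratios in that list were those of Eci2, an enoyl isomerase, at 201 and 144 CPM (1.39 [1.35 to 1.44]), and Acaa2, the thiolase of the last step, at 43.9 and 29.7 CPM. The carnitine shuttle partners of Cpt1a had ratios nearer to 1, such as Cpt2 at 33.4 and 28.0 CPM (1.19 [1.10 to 1.29]). Lpl, the lipase that Angptl4 inhibits, stood at 1487 and 1433 CPM in podocyte-like cells (1.04 [1.03 to 1.05]), and Pnpla2, the main triglyceride lipase of droplets, at 88.7 and 77.0 CPM. Of the receptors, Ppard stood at 25.7 and 23.3 CPM, Ppara at 3.45 and 3.85 CPM and Pparg at 0 UMIs in both libraries, which allows up to 3 counts in each. No receptor transcript at 20 CPM or more therefore differed past 1.5-fold in podocyte-like cells, and receptor activity was not measured.

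**Figure D4:**
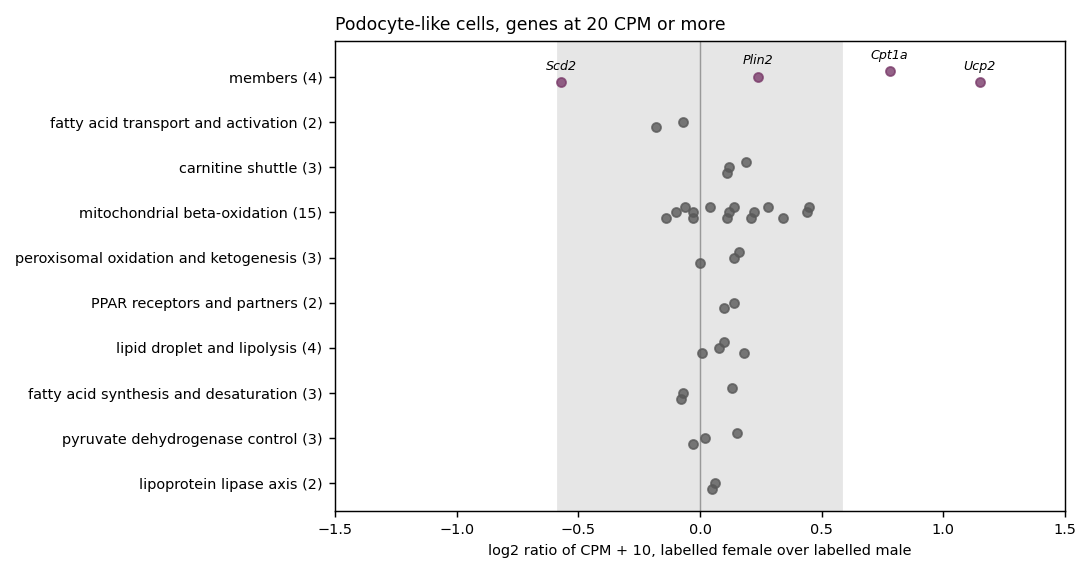
Log2 ratio of CPM + 10 in podocyte-like cells, the library labelled female over that labelled male, for genes at 20 CPM or more; each row is a list with its number of genes measured, points are genes, and grey marks ratios within 1.5-fold. The uncoupling carriers had no gene at that level, and all 37 list genes lie within the grey band. Ucp2 (1.15) and Cpt1a (0.78), picked with their differences known, lie outside it.

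Outside podocytes a few list genes passed the limit, and the share of all genes that did so stands beside each count. In mesangial-like cells, 5 of 42 measured were higher under the female label (3.30% of all genes). Among them were Pdk2, another pyruvate dehydrogenase kinase, at 25.9 and 6.77 CPM, and the beta-oxidation genes Acaa2 at 153 and 88.0, Ech1 at 222 and 137, and Acads at 58.2 and 34.4 CPM. Of the 2 that were lower there (2.46% of all genes), Fabp4 had 3.38 and 40.0 CPM. Fabp4 is an endothelial gene in these cells, at 1839 and 2254 CPM in glomerular endothelial-like cells. In parietal epithelial-like cells 2 of 44 were higher (0.897% of all genes) and 0 lower (0.588%). The 2 were Slc25a20, the carnitine carrier, at 26.5 and 13.4 CPM and Etfb, an electron carrier of beta-oxidation, at 179.7 and 114 CPM. In glomerular endothelial-like cells 3 of 43 were higher (6.53% of all genes) and 0 lower (3.84%). The 3 were Crat at 31.8 and 11.2 CPM, Slc25a20 at 20.9 and 9.79 CPM and Etfb at 118 and 71.3 CPM. In arterial endothelial-like cells 1 of 41 was higher (Acaa2, 78.4 and 48.3 CPM), where 3.10% of all genes were, and 3 were lower, where 3.94% were. The 3 lower genes were Gpihbp1, which holds lipoprotein lipase on capillaries, at 50.9 and 95.4 CPM, the droplet gene Hilpda at 13.7 and 28.7 CPM and Etfa, the partner of Etfb, at 39.2 and 65.5 CPM. In thick ascending limb-like cells 0 of 50 were higher (2.98% of all genes) and 1 lower (3.19%), Pdp2 at 8.53 and 20.3 CPM. The list genes of that class that stood farthest above podocyte-like cells included the fatty acid binding protein Fabp3 at 265 and 325 CPM and Ppargc1a, the coactivator of mitochondrial genes, at 237 and 252 CPM.

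Set against podocyte-like cells, a gene counted when it differed at least 2-fold in the same direction in both libraries. Parietal epithelial-like cells had 1 gene higher (Pdk4) and 1 lower (Scd2), where 12.3% of all genes differed (9.47% higher, 2.79% lower). Pdk4 lay on the 2-fold limit there under the male label, and it was no longer counted in 6 alternatives, nor Scd2 with thinning. Mesangial-like cells had 1 higher (Angptl4) and 1 lower (Scd2), where 22.5% differed (14.7% higher, 7.77% lower). Glomerular endothelial-like cells had 3 higher (Scd1, Fabp5 and Cd36) and 1 lower (Scd2), where 26.3% of all genes differed (16.4% higher, 9.88% lower). Arterial endothelial-like cells had 1 higher (Scd1) and 1 lower (Scd2), where 19.2% differed (12.6% higher, 6.53% lower). By the same measure, thick ascending limb-like cells had 2 higher (Cpt1a and Pdk4) and 0 lower, where 20.8% differed (12.4% higher, 8.39% lower). Pdk4 was not counted there with thinning or at resolution 2.0. Scd2 was thus lower than in podocyte-like cells by this measure in 4 of the 5 other classes, apart from the loss with thinning.

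Across single cells the genes hardly varied together. Over the 36 pairs, the median Pearson r in podocyte-like cells was 0.01 under the female label and 0.00 under the male label, with ranges of -0.04 to 0.08 and -0.03 to 0.05. In no pair did r reach 0.1 in both libraries. Of the 70474 pairs of one of the 9 genes with another gene detected in 10% of the cells, 0.00568% did. The 36 pairs had no such detection filter. Cpt1a and Ucp2, the pair that differed between libraries in the most classes, had r of 0.03 and -0.01 over cells. Ucp2 and Scd2 had 0.01 and -0.01. Within 1 library, a podocyte with more Cpt1a thus did not have visibly more Ucp2 or less Scd2 at this depth. Only 5 of the 9 genes were detected in 10% of these cells in both libraries, which limits what r can show. The early response and stress list had r of 0.04 and 0.01 with Cpt1a and of 0.08 and -0.03 with Ucp2.

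In the other classes a few pairs reached 0.1 in both libraries. Parietal epithelial-like cells had 2 of the 28 pairs with a value (Cpt1a with Plin2, at 0.12 and 0.11, and Ucp2 with Pdk4, at 0.15 and 0.13). Among all pairs of one of the 9 genes with another gene detected in 10% of the cells, the share there was 3.59%. Arterial endothelial-like cells had 2 of 21 (Ucp2 with Scd2, at 0.22 and 0.25, and Ucp2 with Fabp5, at 0.17 and 0.20), with a share of 7.84%. Thick ascending limb-like cells had 2 of 28 (Ucp2 with Scd2, at 0.15 and 0.14, and Plin2 with Fabp5, at 0.25 and 0.12), with 7.48%. Glomerular endothelial-like cells had 1 of 28 (Plin2 with Scd1, at 0.12 and 0.11), with 3.63%, and mesangial-like cells 0 of 28, with 1.30%. Rank correlations of cells thinned to 3000 UMIs gave 1, 1, 0, 0 and 2 such pairs in the same order of classes, so these weak values depend on the measure.

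**Figure D5:**
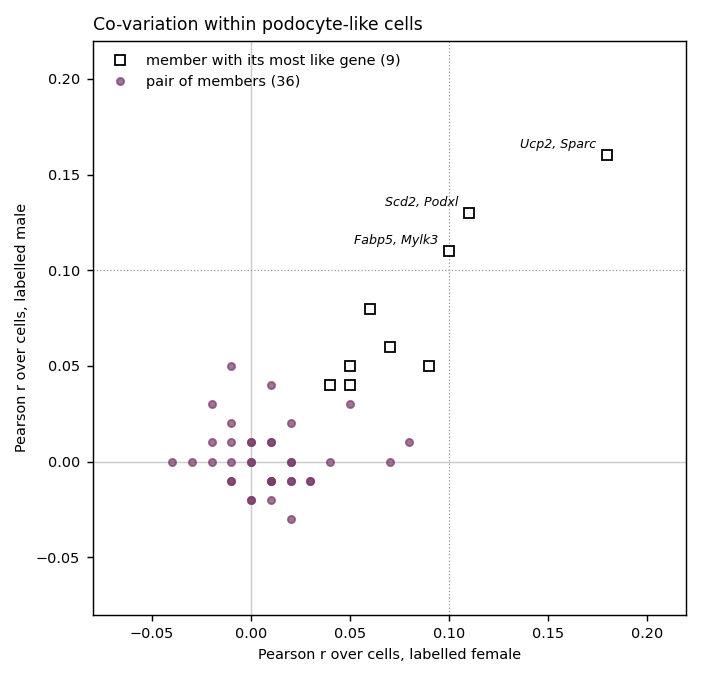
Pearson r over podocyte-like cells, the library labelled female on the horizontal axis and the library labelled male on the vertical axis, for the 36 pairs of the 9 genes (filled) and for each gene with its most like gene (open squares). No pair of the 9 genes reaches the dotted lines at 0.1 in both libraries. Ucp2 with Sparc, the highest of many genes searched, reaches 0.18 and 0.16.

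The genes most like each of the 9 within podocyte-like cells were other genes. The search took the highest value among all genes detected in 10% or more of the cells in both libraries. Only 5 of the 9 genes were among those candidates, so nothing is read from the 9 not being most like each other. Ucp2 went with Sparc, a matrix protein, at r of 0.18 and 0.16, with Anxa1 at 0.12 and 0.11 and with Vim at 0.10 and 0.11. Scd2 went with Podxl, the podocyte surface sialomucin, at 0.11 and 0.13, and with Npr1 and Robo2, and Fabp5 with Mylk3 at 0.10 and 0.11, and with Gabrb1 and Mt1. For the other 6 genes r was at most 0.09 in either library. Across 18 sums (9 classes and clusters in 2 libraries, which share libraries and depth) the closest genes were Mt1 for Cpt1a (r of 0.87), Des for Angptl4 (0.89), Eif4e2 for Ucp2 (0.87), Krt8 for Pdk4 (0.94), Bcl2l11 for Plin2 (0.95), Rfk for Scd1 (0.96), Nars2 for Scd2 (0.93), Ccrl2 for Fabp5 (0.89) and Cd300lg for Cd36 (0.98). Des, an intermediate filament of mesangial and muscle cells, Krt8, a keratin of parietal and tubule cells, and Cd300lg, an endothelial surface protein, follow the classes in which Angptl4, Pdk4 and Cd36 were highest. Des and Krt8 were among the markers used to name the classes, and Cd300lg was a top gene of the glomerular endothelial-like cluster. Nothing further is therefore read from this match.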

How the data were processed

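The authors deposited, per the file headers, raw UMI counts per gene and barcode for each library. The submitters' processing notes name Cell Ranger 6.1.2, STAR 2.7.5a and mm10 without their role; barcode filter, annotation and strand setting: not given in the sources used here. Barcodes with 500 genes or more and at most 20% mitochondrial UMIs were kept. Both libraries were clustered together (scanpy 1.11.5, scikit-learn 1.9.0, leidenalg 0.10.2: 2000 variable genes, 30 components, 20 neighbours, resolution 1.0, finer 2.0), leaving out the 9 genes, the pathway lists, mitochondrial, reporter and sex-linked genes. Names needed 3 detected markers of 18 lists. Scrublet called 2 and 1 doublets, too few to have worked, so doublets were not removed. Counts were summed per class and library, with exact Poisson (levels) and exact conditional binomial (ratios) 95% intervals. With 1 library per label there is no test. Correlations used log values scaled to 10000 UMIs. The calculations were tested on simulated data. All 9 genes are named, with, per pathway list, the highest gene in podocyte-like cells, those past the limit and the 3 farthest above podocyte-like cells per class; Acaa2, Cpt2, Ppara, Pparg and overlapping or marker genes were chosen after their values were seen. Some genes are not reported here. The genes and lists were chosen with earlier results of these data known.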

Additional observations from a re-analysis of the deposited data

How the results depend on the processing

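Filters, clustering, scaling, the added CPM, thinning and cell weighting were varied in 14 alternatives, and 3 more were chosen after seeing the data (no podocyte-like clusters led by early response genes, podocyte carry-over subtracted, parietal cells of both resolutions). The 17 single differences past 1.5-fold kept their direction in every alternative run, and 10 of them stayed past the limit in all. The log2 ratio in podocyte-like cells ranged over 0.75 to 0.93 for Cpt1a and 1.08 to 1.20 for Ucp2, and in mesangial-like cells over 1.15 to 1.43 for Angptl4. Scd1 in glomerular endothelial-like cells ranged over -0.88 to -0.43, Fabp5 in arterial endothelial-like cells over 0.69 to 2.60, and Scd2 over -1.18 to -0.30 in thick ascending limb-like and -1.15 to -0.45 in arterial endothelial-like cells. The number of the 9 genes past 1.5-fold in thick ascending limb-like cells (1) was 0 at a mitochondrial limit of 50%, and 2 with thinning to 3000 UMIs, with a mean over cells, with 1 CPM added and with carry-over subtracted. The number at least 2-fold from podocyte-like cells was 1 in place of 2 in parietal epithelial-like cells at a mitochondrial limit of 50%, at resolutions 0.5 and 2.0, with the 9 genes and pathway lists kept in clustering, with a mean over cells and in parietal cells of both resolutions (Pdk4 lost) and with thinning (Scd2 lost), and 1 in place of 2 in thick ascending limb-like cells with thinning (Pdk4 lost). The cause was not tested. Small classes rest on few UMIs for most of the genes, and depth limits r between genes seen in few cells. No paired analysis was possible because each label has 1 library.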

Other observations

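Immune and proximal tubule cells were too few for a class of their own in the report. The finer clustering gave 11 and 26 macrophage-like cells, in which Ucp2 stood at 915 CPM under the female label and at 761 CPM under the male label (ratio 1.20 [0.911 to 1.57]) and Plin2 at 474 and 448 CPM (1.06 [0.720 to 1.53]). Both levels were above those of the 6 classes of the report, while both intervals include 1. Fabp5 stood there at 187 and 168 CPM and Cd36 at 11.0 and 37.4 CPM. In 9 and 32 T or NK-like cells Ucp2 stood at 289 and 321 CPM. Proximal tubule-like cells (10 and 22) had 114 and 47.2 CPM of Cpt1a, 85.7 and 65.4 CPM of Pdk4, and 12.7 and 87.2 CPM of Scd1, on 4 and 48 UMIs for Scd1.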
